A study of Mus musculus with 4 samples.

Results

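The cells described here are 1452 Pi16 positive adventitial fibroblasts of the mouse mid-colon, out of 44356 cells within the quality limits. The cells came from 7-week-old mice kept free of specific pathogens. Mice of the DSS group drank 3% dextran sulfate sodium (DSS), a polysaccharide that injures the colonic lining, for 2 days, and control mice drank clean water. Each group held 2 droplet libraries that count the 3′ ends of transcripts, named here DSS 1, DSS 2, control 1 and control 2. The labels give no strain or sex, and they do not say whether the libraries of a group came from separate animals, so p-values measure the spread between libraries, which may be technical.

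Members were chosen on their own counts of unique molecular identifiers (UMIs), which tag single captured transcripts. A barcode needed at least 500 UMIs and 250 genes, and at most 25% mitochondrial UMIs. It then needed at least 15 UMIs of the collagen-matrix genes Dcn, Col1a2 and Col3a1 together, no UMI of Ptprc or Pecam1 and fewer than 2 UMIs of Epcam, which mark leukocytes, endothelium and epithelium. These steps gave 10024 fibroblast-gated cells. Members had at least 2 UMIs of Pi16, Mfap5 and Cd248 together, fewer than 3 of Has1, Tnfaip6 and Ptx3 together, fewer than 2 of Adamdec1 and fewer than 2 of Kcnn3 and Fibin together. DSS 1 and DSS 2 held 465 and 275 members, and control 1 and control 2 held 470 and 242. The comparison cells, called other fibroblasts, passed the same quality limits, fibroblast gate and limit on Has1, Tnfaip6 and Ptx3. They had fewer than 2 UMIs of the Pi16 set. The limits on Adamdec1 and on Kcnn3 and Fibin were not applied to them. Of the 3946 other fibroblasts, 1499 had at least 2 UMIs of Adamdec1. A further 1376 had at least 2 UMIs of Kcnn3 and Fibin together. The DSS libraries held 1644 and 979 other fibroblasts and the control libraries 941 and 382.

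Pi16 positive fibroblasts lie in the adventitia, the connective tissue sheath around vessels, and in the deep connective tissue of many organs, the submucosa of the gut included. In mice they are regarded as a reservoir of less specialised fibroblasts, marked by Pi16, a secreted or membrane-anchored peptidase inhibitor, by Cd248 (endosialin), a surface glycoprotein of stromal cells, and by Cd34. Their matrix is rich in microfibrils, thin fibres built of fibrillins such as Fbn1 with associated glycoproteins such as Mfap5, on which elastic fibres form. Other gut fibroblasts lie closer to the epithelium, where they supply Wnt and BMP signals to the crypts.

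The libraries held 94607154 to 107602987 UMIs within the quality limits. The members summed to 2145676 and 1061456 UMIs in DSS 1 and DSS 2 and to 1925694 and 1261467 UMIs in control 1 and control 2. Their median depth was 4142 and 3621 UMIs per cell in the DSS libraries, against 3736 and 4967 in the control libraries. Scrublet called 21 members doublets, and 20 members carried a barcode sequence that also occurs in another library. Against an aim of 5000 cells for each library in the labels, 49851 barcodes were deposited. Levels below are CPM, the UMIs of a gene summed over the members of a library and scaled to the same total in every library. A lower level can mean fewer cells with the transcript or less of it in each cell, and sums do not tell these apart.

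The name Pi16 positive holds for the summed set of genes more than for Pi16 alone. Mfap5 was detected in 1396 of the 1452 members, Cd248 in 832 and Pi16 in 776. All 3 genes were detected together in 487 members, and 355 members rested on Mfap5 with neither of the others. A UMI of Mfap5 was held by 96.1% of members, of Cd248 by 57.3% and of Pi16 by 53.4%, against 7.60%, 3.69% and 4.69% of the 34332 cells outside the fibroblast gate. The median depth was 4074.5 UMIs in members, against 7103 in those cells. The gene Pi16 lies at chr17:29317680-29330593, Mfap5 at chr6:122505845-122529290 and Cd248 at chr19:5068078-5070682, all on the plus strand of GRCm38. Members just inside the limit, with exactly 2 UMIs of the set, numbered 298 and had a median depth of 2862.5 UMIs. Just outside it were 425 cells with exactly 1 UMI and a median of 2322. Pooled over libraries, the cells just inside had 539 CPM of Fbn1 and 232 CPM of Pcolce2, and those just outside had 407 CPM and 195 CPM. Members with at least 4 UMIs of the set had 1639 CPM of Fbn1 and 535 CPM of Pcolce2, while fibroblasts with 0 UMIs of the set had 193 CPM and 18.8 CPM. Cells of intermediate level thus lay on both sides of the limit.

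The limit on Has1, Tnfaip6 and Ptx3 set how many cells of each library remained. Has1 makes hyaluronan, Tnfaip6 links proteins to it, and Ptx3 is a secreted pattern-recognition protein. Of all cells that met the other limits, 40.0% and 83.5% were removed as inflamed in DSS 1 and DSS 2, against 14.9% and 70.0% in control 1 and control 2. The inflamed share was thus higher in the second library of each group, and the groups overlapped. With the inflamed cells counted, the Pi16 set was found in 27.0% and 43.1% of fibroblast-gated DSS cells and in 32.6% and 50.5% of control cells. Without them, members made up 16.2% and 7.11% of fibroblast-gated cells in DSS 1 and DSS 2 and 27.8% and 15.2% in control 1 and control 2. Their 95% Clopper-Pearson intervals were 14.9 to 17.6% and 6.32 to 7.97% for DSS, and 25.6 to 29.96% and 13.4 to 17.0% for control, and cover counting error only. The mean was 11.7% ± 6.44 in DSS and 21.5% ± 8.92 in control (SD, n = 2 each), a difference of -9.79 points that was smaller than the distance between the control libraries. The two-sided exact permutation test gave p = 0.667 with n = 2 per group, and 0.333 is the smallest p this design allows. The groups overlapped, with DSS 1 (16.2%) above control 2 (15.2%). The direction of the mean difference held in every setting tried, but all settings used these same libraries and add no independent support. Against all cells within the limits, members made up 3.86% and 2.24% in DSS, against 5.04% and 2.25% in control.

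**Figure D1:**
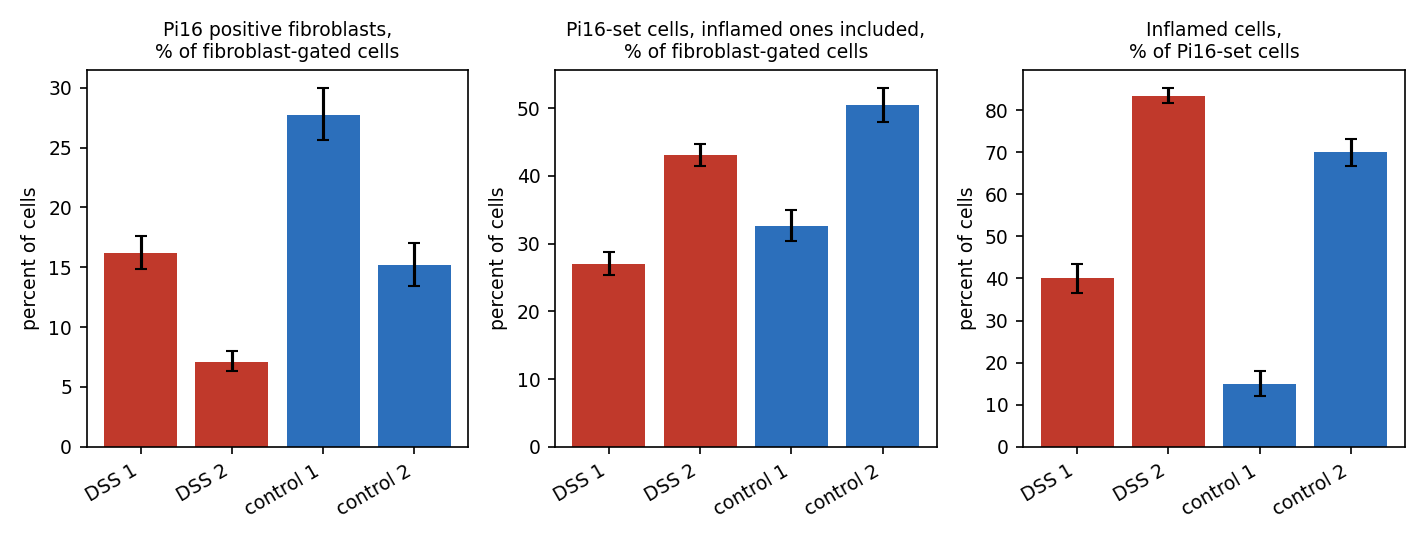
Shares per library, in percent of cells, with exact 95% binomial intervals as error bars. Left, members among fibroblast-gated cells; middle, the same with inflamed cells counted; right, inflamed cells among cells with the Pi16 set, where DSS 2 (83.5%) and control 2 (70.0%) stand above DSS 1 (40.0%) and control 1 (14.9%).

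Fbn1 is a marker that the rule did not use, but its level rose with the count of the Pi16 set, so it is no independent check of the label. Fbn1, the main fibrillin of microfibrils (chr2:125300594-125507993, minus strand), stood at 1183 and 976 CPM in members of DSS 1 and DSS 2 and at 1807 and 1299 CPM in members of control 1 and control 2. In the other fibroblasts it stood at 232 and 165 CPM in DSS and at 209.8 and 295 CPM in control, so the members were 4.41 to 8.61 times higher within each library. Fbn1 was detected in 83.2% and 76.4% of DSS members and in 86.8% and 82.6% of control members. Members and other fibroblasts were split on counts of the same cells. Every value in this and the next paragraphs that sets one against the other is therefore a description with no test.

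A total of 154 genes were at least 2-fold higher in members than in other fibroblasts in all 4 libraries, which is 2.39% of the 6435 genes with a mean of at least 20 CPM in members. Of the 23 adventitial and universal fibroblast markers at that level, 17 were among them. Cd34, a surface sialomucin, averaged 1011 CPM in members and 242 CPM in other fibroblasts over the 4 libraries. Sema3c, a secreted guidance cue, averaged 631 CPM in members and 93.2 CPM in other fibroblasts. Cd55, which protects cells from complement, averaged 1118 CPM in members and 182 CPM in other fibroblasts. Igfbp6, a binding protein of insulin-like growth factors, averaged 1293 CPM in members and 195 CPM in other fibroblasts. Against the list, Procr, the endothelial protein C receptor, averaged 15.8 CPM in members and 98.1 CPM in other fibroblasts. Dpp4, the peptidase that marks such cells in mouse skin and fat, had 14.4 and 30.1 CPM in members of the DSS libraries and 8.83 and 10.3 CPM in members of the control libraries. Its mean stayed under the 20 CPM limit.

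Genes with the largest ratios were in part little known as fibroblast genes. Islr2, a leucine-rich repeat membrane protein studied in neurons, had 27.0 and 31.1 CPM in DSS members and 35.3 and 24.6 CPM in control members. In other fibroblasts it had 0.552 and 0.267 CPM in DSS and was not counted in either control library. Krtdap, described in differentiating keratinocytes, had 24.2 and 15.1 CPM in DSS members and 50.9 and 22.99 CPM in control members, against at most 1.20 CPM in the other fibroblasts of any library. Both genes were seen in members of every library at a low level. Adgrg2, an adhesion receptor, averaged 51.1 CPM in members and 2.24 CPM in other fibroblasts. Pcolce2, an enhancer of the enzyme that trims procollagen, had 419 and 491 CPM in DSS members and 490.2 and 494 CPM in control members. In other fibroblasts Pcolce2 lay between 29.7 and 46.9 CPM, so the members were 10.5 to 16.1 times higher. Scara5, a ferritin receptor, averaged 217 CPM in members and 17.6 CPM in other fibroblasts. Ebf1, a transcription factor of B cells and of fat precursors, averaged 768 CPM in members and 105 CPM in other fibroblasts. Tek, the angiopoietin receptor of endothelium, averaged 112 CPM in members and 14.1 CPM in other fibroblasts, while members by rule had no UMI of the endothelial gene Pecam1. The others of the 15 largest ratios were Efhd1, Lrrn4cl, Cmah, Emilin2, 1700019D03Rik, Lmo2, Pthlh and Galnt16, with mean levels of 23.8 to 153 CPM in members and 0.556 to 10.1 CPM in other fibroblasts.

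**Figure D2:**
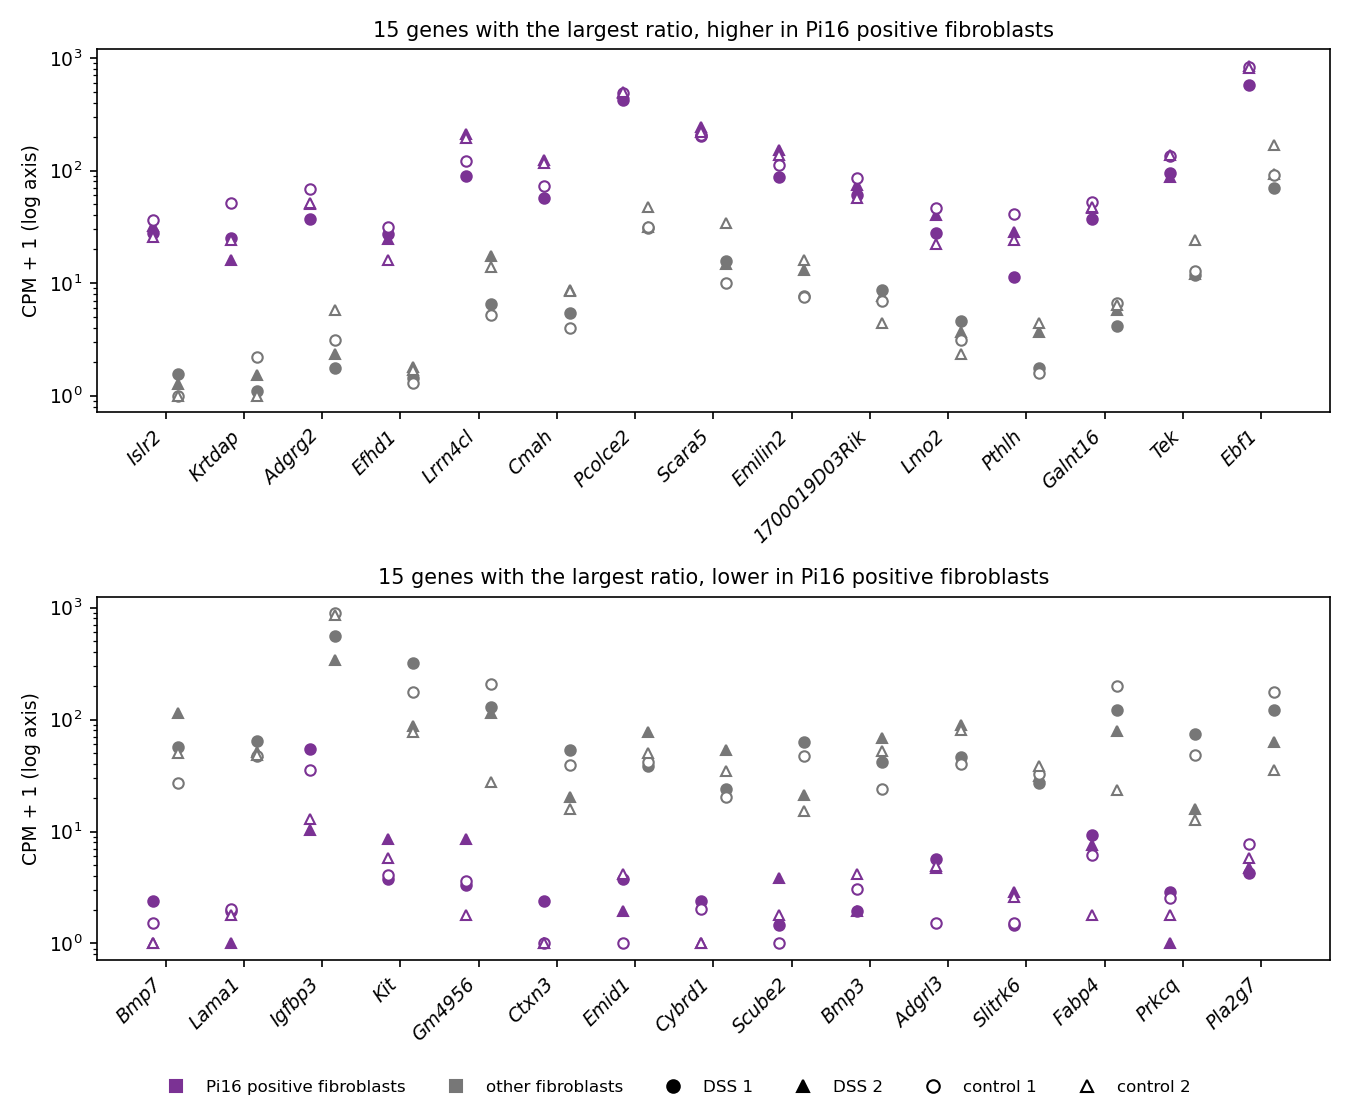
CPM plus 1 on a log axis for the 15 genes with the largest ratio in each direction, with 1 point per library. Purple points are Pi16 positive fibroblasts and grey points other fibroblasts; filled symbols are DSS and open symbols control libraries. Purple and grey points of each gene do not overlap, and the members were selected on counts of these same cells.

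The matrix genes divided. Of all genes at 20 CPM in members, 2.39% were at least 2-fold higher in members in every library. Of those at that level in other fibroblasts, 3.56% were at least 2-fold lower in members. Of 20 microfibril and elastic fibre genes at the level limit, 5 were at least 2-fold higher in members in every library. These were Fbn1, Eln (elastin), Fbln2, Emilin2 and Adamtsl1. Fbln2, a fibulin of elastic fibres, averaged 991 CPM in members and 165 CPM in other fibroblasts, and Eln averaged 737 CPM in members and 207 CPM in other fibroblasts. Fbn2, the fibrillin of developing tissue, went the other way with means of 4.45 CPM in members and 24.6 CPM in other fibroblasts. Of 16 collagen genes, Col8a1 and Col14a1 were 2-fold higher in members in every library. Col14a1, which decorates collagen fibrils, averaged 1536 CPM in members and 255 CPM in other fibroblasts. Of 19 collagen genes at 20 CPM in other fibroblasts, 4 were 2-fold lower in members, and Col4a5 and Col4a6 of basement membranes were among them. Of 8 complement genes at the level limit, 4 were 2-fold higher in members. C3, the central complement protein, averaged 1911 CPM in members and 356 CPM in other fibroblasts.

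In all, 241 genes were at least 2-fold lower in members in every library, which is 3.56% of the 6772 genes with a mean of at least 20 CPM in other fibroblasts. Of 25 chemokine and cytokine genes at that level, 10 were lower, and of 17 at the level limit in members, Il33 and Ackr3 were higher. Cxcl13, which draws B cells, averaged 11.97 CPM in members and 133 CPM in other fibroblasts, and 312 CPM in the 1499 fibroblasts with at least 2 UMIs of Adamdec1. Cxcl14 averaged 4.45 CPM in members, 63.7 CPM in other fibroblasts and 149.6 CPM in the Adamdec1 positive cells. Il33, an alarm cytokine of the interleukin 1 family, had 105 and 210.1 CPM in DSS members and 193 and 247 CPM in control members, against 13.1 to 62.5 CPM in other fibroblasts. Of 22 Wnt, R-spondin and BMP genes, 7 were lower in members, which were Wnt4, Sfrp1, Dkk3, Frzb, Bmp3, Bmp5 and Bmp7, and of 20 at the level limit in members, Sfrp4 and Fstl1 were higher. Bmp7 had at most 1.40 CPM in members of any library, against 26.1 to 114 CPM in other fibroblasts. Kit, the stem cell factor receptor, averaged 4.55 CPM in members and 164 CPM in other fibroblasts, and 378 CPM in the 1376 fibroblasts with at least 2 UMIs of Kcnn3 and Fibin. Igfbp3 averaged 27.2 CPM in members and 663 CPM in other fibroblasts. The rule bars Adamdec1, Kcnn3 and Fibin from members, so low levels of genes that go with them were in part set by the choice of cells.

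Markers of a further fibroblast type were also high in members. Of the 4 markers of Cilp positive fibroblasts, Fmo2, Ackr4 and C7 were at least 2-fold higher in members in every library. The share over all genes was 2.39%. Cilp, a matrix protein first described in cartilage, had 875 and 597 CPM in DSS members and 1274 and 1289.8 CPM in control members, against 446 and 394 CPM in DSS and 417 and 301 CPM in control in other fibroblasts. The rule sets no limit on these genes, and the members were not divided by them. Telocyte markers were low, with summed levels of 77.4 and 70.7 CPM in DSS members and 89.8 and 95.1 CPM in control members.

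The treatment comparison asked which genes differed in the members after 2 days of DSS. In edgeR's quasi-likelihood test on the library sums, adjusted by Benjamini-Hochberg over 10364 genes, 1 gene was lower in DSS (0.00965%) and none was higher (0%). DESeq2 called 3 lower and 2 higher. At an unadjusted p under 0.05 there were 161 higher genes (1.55%) and 108 lower genes (1.04%). Both DSS libraries lay above both controls for 954 genes (9.2%) and below them for 1709 genes (16.5%). The count of calls hung on single libraries: it was 52 without DSS 1, 66 without DSS 2, 0 without control 1 and 0 without control 2, where the lone library of a group is assumed to vary like the other group. The median log2 fold change over all tested genes was 0.0014.

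The gene that passed was Spink4, a goblet cell peptide. Spink4 (chr4:40920052-40931395) had 30.3 and 36.7 CPM in members of DSS 1 and DSS 2, against 243 and 309.96 CPM in members of control 1 and control 2. The log2 fold change was -2.99 (SE 0.29, adjusted p = 0.0249 by edgeR), and both DSS libraries lay below both controls. Without control 1 the adjusted p was 0.178 and without control 2 it was 0.0582. A UMI of Spink4 was found in 13.8% of members in either DSS library, against 59.1% and 79.3% of members of control 1 and control 2, with at most 14 UMIs in a cell. In other fibroblasts Spink4 had 26.9 and 38.5 CPM in DSS and 258 and 455 CPM in control, the same order as in members. Of other goblet cell and epithelial genes, Muc2 (the gel-forming mucin), Agr2 (a mucin folding enzyme), Retnlb (an antibacterial peptide) and Oit1 had small unadjusted p-values and did not pass in edgeR. Muc2 had 123 and 81.0 CPM in DSS members, against 303 and 276 CPM in control members (log2 fold change -1.42, SE 0.32, edgeR adjusted p = 1). Agr2 had 22.8 and 32.0 CPM in DSS members, against 106 and 102 CPM in control members (log2 fold change -1.90, SE 0.27, edgeR adjusted p = 0.294, DESeq2 adjusted p = 0.00715). Retnlb had 33.6 and 16.0 CPM in DSS members, against 99.2 and 72.1 CPM in control members. The 17 epithelial marker genes other than Epcam summed to 895 and 1593 CPM in DSS members and to 1509.6 and 2313 CPM in control members. In other fibroblasts they summed to 785 and 1574 CPM in DSS and to 1683 and 2962 CPM in control. Epcam itself was limited by the rule. Of 17 tested epithelial genes, 4 lay above 0. The part of epithelial RNA in the Spink4 result was not tested beyond these values.

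Plasma cell transcripts also differed between libraries, and 1 library stood apart. The B and plasma cell list summed to 17088 and 1472 CPM in DSS members and to 351 and 3589 CPM in control members, and to 11703 and 1414 CPM in DSS and 437 and 4789 CPM in control in other fibroblasts. Igkc, the kappa light chain, was counted in 99.8% and 86.9% of DSS members and 47.2% and 100% of control members. Iglc2, a lambda light chain, had 3483 and 72.5 CPM in DSS members and 1.56 and 22.2 CPM in control members. A single predicted doublet of DSS 1 held 85.4% of that library's Iglc2 UMIs, and the level without that cell was 514 CPM. Iglc2 did not pass (edgeR adjusted p = 1).

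Several further genes were lower in DSS and did not pass in edgeR. Tnfrsf11b, the secreted decoy receptor osteoprotegerin (chr15:54250619-54278484, minus strand), had 56.4 and 53.7 CPM in DSS members, against 183 and 186 CPM in control members. It was counted in 16.1% and 16.7% of DSS members and in 38.7% and 38.0% of control members. The log2 fold change was -1.68 (SE 0.27, edgeR adjusted p = 0.474, unadjusted p = 0.000137, DESeq2 adjusted p = 0.00595). The libraries of each group lay close together, and the groups were apart. In other fibroblasts Tnfrsf11b was low, with 10.3 and 24.6 CPM in DSS and 20.1 and 37.4 CPM in control. The receptor of leptin, Lepr, had 96.9 and 74.4 CPM in DSS members, against 205 and 304 CPM in control members (log2 fold change -1.47, SE 0.31, edgeR adjusted p = 1). Igf1, insulin-like growth factor 1, had 265 and 257 CPM in DSS members, against 547 and 461 CPM in control members (log2 fold change -0.89, SE 0.29, edgeR adjusted p = 1). Sfrp4, a secreted Wnt binding protein, had 20.97 and 20.7 CPM in DSS members, against 41.0 and 42.8 CPM in control members (log2 fold change -0.93, SE 0.28, edgeR adjusted p = 1).

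Ptch1, Gli1 and Hhip, of the Hedgehog pathway, had lower levels in both DSS libraries, and none passed in edgeR. Hedgehog proteins come from the gut epithelium and act on stromal cells, where the receptor gene Ptch1, its inhibitor Hhip and the transcription factor Gli1 are themselves raised by the signal. Of these, Ptch1 was named by the rule for genes, and the others were added after their values were seen. Ptch1 had 63.8 and 53.7 CPM in DSS members, against 203 and 121 CPM in control members (log2 fold change -1.41, SE 0.34, edgeR adjusted p = 1; -0.92 without control 1). Gli1 had 8.39 and 8.48 CPM in DSS members, against 38.9 and 30.9 CPM in control members (log2 fold change -1.99, SE 0.35, edgeR adjusted p = 0.736). It was counted in 17 and 8 cells of the DSS libraries and in 62 and 35 cells of the control libraries. Hhip had 113 and 37.7 CPM in DSS members, against 231 and 407 CPM in control members. For these 3 genes both DSS libraries lay below both controls, as for 16.5% of genes. In other fibroblasts Gli1 had 3.75 and 4.01 CPM in DSS and 15.9 and 42.1 CPM in control, and Ptch1 had 83.7 and 138 CPM in DSS and 207 and 281 CPM in control. The factors Gli2 and Gli3 overlapped between groups in members, with 28.4 and 19.8 CPM of Gli2 in DSS and 20.8 and 22.2 CPM in control, and 40.5 and 83.8 CPM of Gli3 in DSS and 49.3 and 66.6 CPM in control. The other fibroblasts thus showed the same order for Ptch1 and Gli1, and no difference between the cell types was called for them (interaction, edgeR adjusted p = 1 for both).

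**Figure D3:**
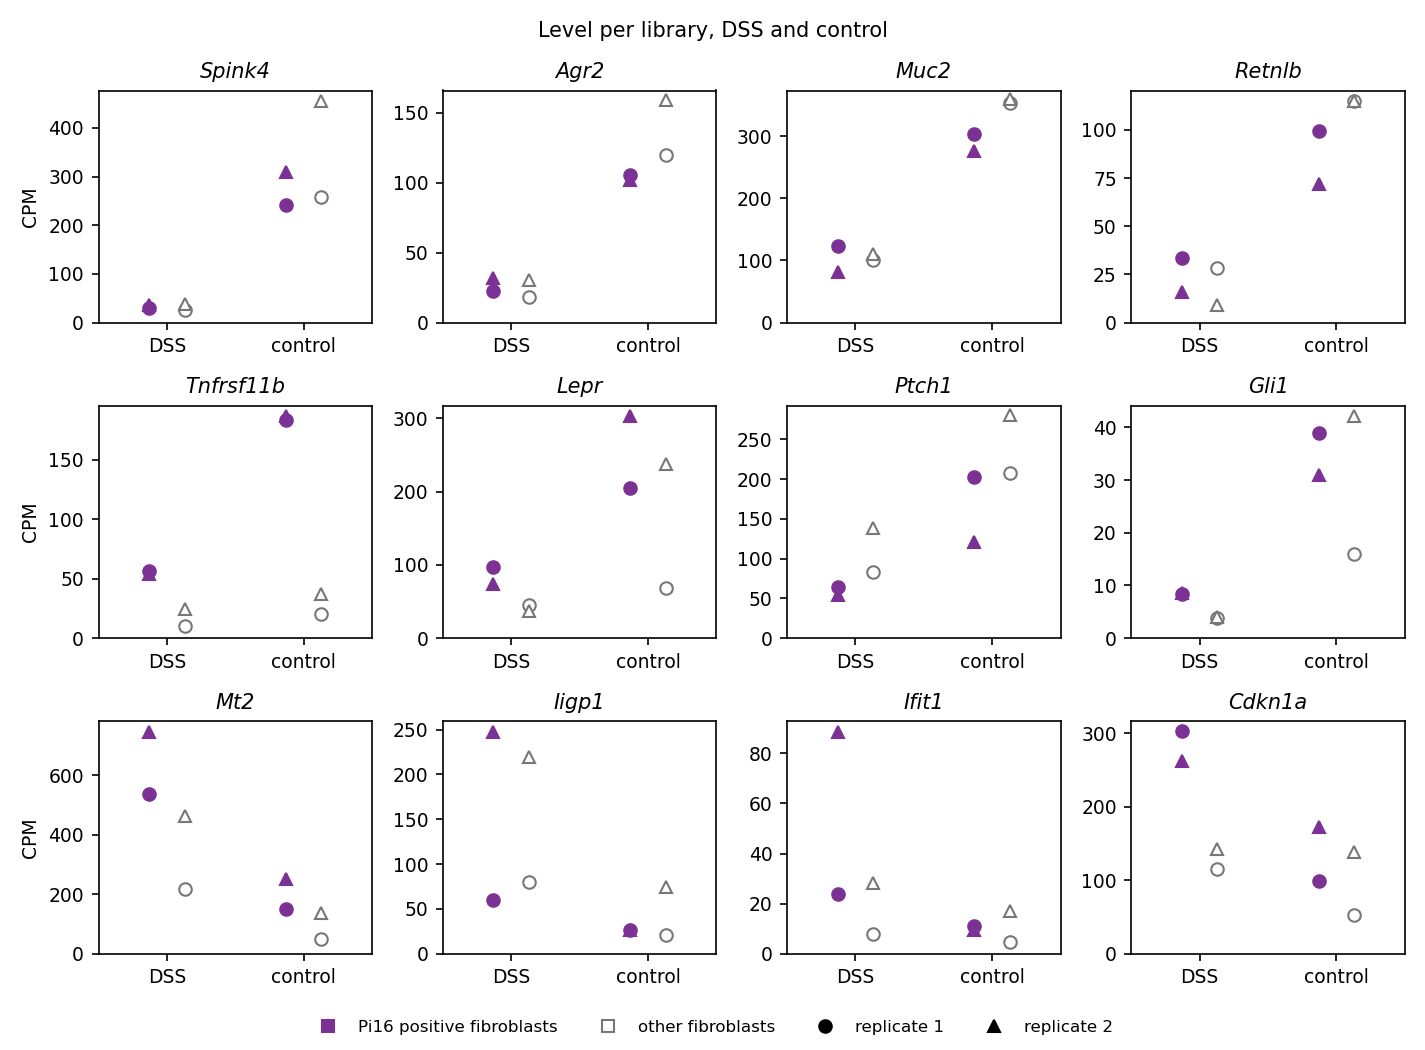
Level in CPM per library for 12 genes named in the text, DSS on the left and control on the right of each panel. Filled purple symbols are Pi16 positive fibroblasts and open grey symbols other fibroblasts, circles replicate 1 and triangles replicate 2. Spink4, the gene that passed, Agr2, Muc2 and Retnlb are about as high in other fibroblasts, and for Iigp1 and Ifit1 DSS 2 (248 and 88.6 CPM) stands far above DSS 1 (59.7 and 23.8 CPM).

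Among genes that were higher in DSS, none passed in edgeR. Mt2, a metallothionein that binds zinc and copper, had 536 and 746 CPM in DSS members, against 150.1 and 249.7 CPM in control members (log2 fold change 1.74, SE 0.32, edgeR adjusted p = 0.736, DESeq2 adjusted p = 0.00215). It was counted in 63.4% and 65.1% of DSS members and in 34.5% and 46.3% of control members. Its neighbour in function Mt1 had 1303 and 1726 CPM in DSS members, against 786 and 903 CPM in control members (log2 fold change 0.89, SE 0.30, edgeR adjusted p = 1). In other fibroblasts Mt2 had 217 and 463 CPM in DSS and 48.9 and 136 CPM in control, again without overlap. Adm, the vasodilator peptide adrenomedullin, had 60.6 and 40.5 CPM in DSS members, against 17.7 and 21.4 CPM in control members. Cdkn1a, the cell cycle inhibitor p21, had 303 and 263 CPM in DSS members, against 98.7 and 172 CPM in control members. Serpina3n, a secreted protease inhibitor, had 206 and 307 CPM in DSS members, against 128 and 125 CPM in control members. These 3 genes had log2 fold changes of 1.48, 1.15 and 1.06 and did not pass in edgeR (adjusted p = 1 each).

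Interferon genes were mostly above control in DSS members, and the medians of their lists rested mainly on DSS 2. Interferons act through STAT and IRF factors on genes of antigen presentation, on GTPases that attack vacuoles and on antiviral proteins. Of 28 tested genes of the interferon gamma list, 27 had a log2 fold change above 0, against 50.2% of all genes, with a median of 1.09. None passed the adjusted threshold in edgeR. With DSS higher, 13 had an unadjusted p under 0.05, against 1.55% of all genes, and 9 were apart between the groups, against 9.2% of all genes. The median was 0.34 without DSS 2, 1.43 without DSS 1 and 1.31 with the inflamed cells kept. Some genes went the other way. The MHC class II genes H2-Aa, H2-Ab1 and H2-Eb1 had log2 fold changes of 2.40, 1.95 and 2.16 without DSS 2. With the 4 libraries and no filter on low counts they had 1.80, 1.37 and 1.47. These genes thus rested more on DSS 1, where the myeloid list was also highest (202 CPM), and its part was not tested. Iigp1, an immunity-related GTPase, had 59.7 and 248 CPM in DSS members, against 26.0 and 26.2 CPM in control members (log2 fold change 2.54, SE 0.55, edgeR adjusted p = 1, DESeq2 adjusted p = 0.00549). Its log2 fold change was 1.34 without DSS 2. Ifi47, of the same GTPase family, had 13.0 and 57.5 CPM in DSS members, against 5.71 and 8.72 CPM in control members. Psmb9, an immunoproteasome subunit, had 19.6 and 78.2 CPM in DSS members, against 10.9 and 13.5 CPM in control members. DSS 1 was nearer to the controls than to DSS 2 for each of these. Of 22 type I interferon genes, 20 lay above 0 with a median of 0.76. That median was 0.40 without DSS 2 and 0.69 with the inflamed cells kept. None passed in edgeR. With DSS higher, 9 had an unadjusted p under 0.05, against 1.55% of all genes, and 10 were apart, against 9.2%. Ifit1, an antiviral protein that binds foreign RNA caps, had 23.8 and 88.6 CPM in DSS members, against 10.9 and 9.51 CPM in control members (log2 fold change 2.39, SE 0.56, edgeR adjusted p = 1). Its log2 fold change was 1.34 without DSS 2 and 0.83 with the inflamed cells kept. In DSS 1 a single cell held 43.1% of the Ifit1 UMIs, and the level without it was 13.6 CPM. Ifi207 had 63.8 and 73.5 CPM in DSS members, against 25.4 and 42.0 CPM in control members, and there the DSS libraries were close.

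The promoters of Ifit1 and of Irgm1, a further gene of the interferon lists, were picked because each carries the interferon-stimulated response element. This is the sequence to which IRF and STAT factors bind. Sequences are RefSeq windows of GRCm38.p6 from 250 bases before to 50 bases after the start, on the gene's strand, 5′ to 3′, with matches to TTTCNNTTTC on either strand in capitals. The Ifit1 window lies at chr19:34640639-34640938 on the plus strand, and its first match begins 104 bases before the start. The Irgm1 window lies at chr11:48871371-48871670 on the minus strand. Its 2 matches overlap, and the first begins 30 bases before the start.
Ifit1: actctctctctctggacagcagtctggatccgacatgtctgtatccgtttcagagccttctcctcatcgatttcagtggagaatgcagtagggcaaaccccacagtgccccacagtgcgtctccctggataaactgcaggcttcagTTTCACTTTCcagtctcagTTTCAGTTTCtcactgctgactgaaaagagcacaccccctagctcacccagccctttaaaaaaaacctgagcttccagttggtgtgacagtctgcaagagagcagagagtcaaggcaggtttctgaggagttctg
Irgm1: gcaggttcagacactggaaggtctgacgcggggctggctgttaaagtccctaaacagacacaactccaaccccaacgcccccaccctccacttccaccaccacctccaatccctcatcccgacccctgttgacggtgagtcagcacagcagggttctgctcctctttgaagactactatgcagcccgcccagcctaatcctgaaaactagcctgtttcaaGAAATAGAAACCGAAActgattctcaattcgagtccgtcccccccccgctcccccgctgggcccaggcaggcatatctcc

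Of 51 such windows for the 41 tested genes of both interferon lists that had one, 22 held a match, against 3.44% of 32851 windows in all. The windows of Ifi47 and Psmb9, named above, held none. A match is a description of the letters and not of binding. Irgm1, an immunity-related GTPase, had 26.1 and 55.6 CPM in DSS members, against 16.1 and 19.8 CPM in control members (log2 fold change 1.19, SE 0.37, edgeR adjusted p = 1).

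For the other gene lists no member passed in edgeR. Of 28 NF-kB response genes, 24 lay above 0 with a median of 0.58, which was 0.20 without control 1, 0.28 without DSS 2 and 0.91 without control 2. With the inflamed cells kept, the NF-kB median was 0.70. Tnfaip3, a brake on NF-kB, had 38.2 and 80.1 CPM in DSS members, against 11.9 and 36.5 CPM in control members. Of 34 immediate early and dissociation stress genes, 32 lay above 0 with a median of 0.43, which was 0.14 without control 1. Their summed level was 24743 and 22649 CPM in DSS members, against 12947 and 24565 CPM in control members, so control 1 alone was low. The transcripts of that list are known to be raised by cell dissociation, and their part in the other differences was not tested.

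No adventitial marker passed in edgeR between DSS and control. Of 28 tested adventitial markers, 13 lay above 0. The median was -0.06, and it ranged between -0.13 without DSS 2 and 0.10 without DSS 1. Opcml, a cell adhesion protein, had 40.1 and 40.5 CPM in DSS members, against 22.3 and 19.0 CPM in control members (log2 fold change 1.01, SE 0.29, edgeR adjusted p = 1). Of 22 microfibril and elastic fibre genes, 4 lay above 0, with a median of -0.22, and 10 were apart with DSS lower, against 16.5% of all genes. The median was -0.13 without control 2 and -0.07 with the inflamed cells kept. Mfap4, a microfibril glycoprotein, had 474 and 367 CPM in DSS members, against 755 and 595 CPM in control members (log2 fold change -0.62, SE 0.32, edgeR adjusted p = 1). Of 18 collagen genes, 3 lay above 0, with a median of -0.13, and 9 were apart with DSS lower, against 16.5% of all genes. The median ranged between -0.37 without DSS 1 and -0.00063 without DSS 2, so its size rests on single libraries. No microfibril or collagen gene had an unadjusted edgeR p under 0.05, against 1.55% of all genes with DSS higher and 1.04% with DSS lower. Lists of this size would hold few such genes at those shares. The rule genes Pi16, Mfap5 and Cd248 had log2 fold changes of -0.42, -0.55 and -0.49, for which no test is given because the limits on them shape their range.

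Secreted factors and matrix enzymes gave no call in edgeR, and the medians of their lists moved with single libraries. The matrix protease and inhibitor list had 21 of 28 tested genes above 0 and a median of 0.22, which ranged between 0.05 without DSS 2 and 0.19 without control 2. Mmp3, a matrix metalloprotease of fibroblasts, had 56.4 and 49.9 CPM in DSS members, against 33.2 and 27.7 CPM in control members (log2 fold change 0.86, SE 0.28, edgeR adjusted p = 1). Proteoglycans and matrix glycoproteins had 17 of 29 tested genes above 0 and a median of 0.09, which ranged between -0.06 without DSS 1 and 0.08 without control 2. Thbs1, thrombospondin 1, had 365 and 416 CPM in DSS members, against 172 and 285 CPM in control members (log2 fold change 0.84, SE 0.30, edgeR adjusted p = 1). Chemokines and cytokines had 18 of 23 tested genes above 0 and a median of 0.25, which ranged between 0.10 without control 1 and 0.54 without control 2. With the inflamed cells kept, the chemokine and cytokine median was 0.50. Ccl8, a chemokine ligand, had 13.5 and 9.42 CPM in DSS members, against 3.12 and 4.76 CPM in control members (log2 fold change 1.68, SE 0.54, edgeR adjusted p = 1). Growth factors and their receptors had 25 of 36 tested genes above 0 and a median of 0.27, which ranged between 0.06 without control 1 and 0.29 without DSS 2. Ereg, the epidermal growth factor family ligand epiregulin, had 23.3 and 21.7 CPM in DSS members, against 5.71 and 11.9 CPM in control members (log2 fold change 1.49, SE 0.41, edgeR adjusted p = 1). For each of these 4 genes both DSS libraries lay above both controls, as for 9.2% of all genes. List examples were picked in part by small unadjusted p, so this order says nothing about the lists. Wnt, R-spondin and BMP genes had 16 of 28 tested genes above 0 and a median of 0.04, which ranged between -0.09 without control 1 and 0.20 without control 2. Complement genes had 7 of 10 tested genes above 0 and a median of 0.11, which ranged between -0.02 without control 1 and 0.26 without control 2. Genes of the unfolded protein response had 6 of 22 tested genes above 0 and a median of -0.16, which ranged between -0.21 without control 2 and 0.01 without control 1.

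The summed levels of markers of other cell types in the members differed by library. The smooth muscle and pericyte list summed to 4970.0 and 1048 CPM in DSS members and 1693 and 3248 CPM in control members. The myeloid list summed to 202 and 40.5 CPM in DSS members and 35.8 and 49.9 CPM in control members, and the mesothelial list to 189.7 and 470.1 CPM in DSS members and 267 and 544 CPM in control members. DSS 1 was highest for the first 2 lists, and their part in the differences above was not tested.

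**Figure D4:**
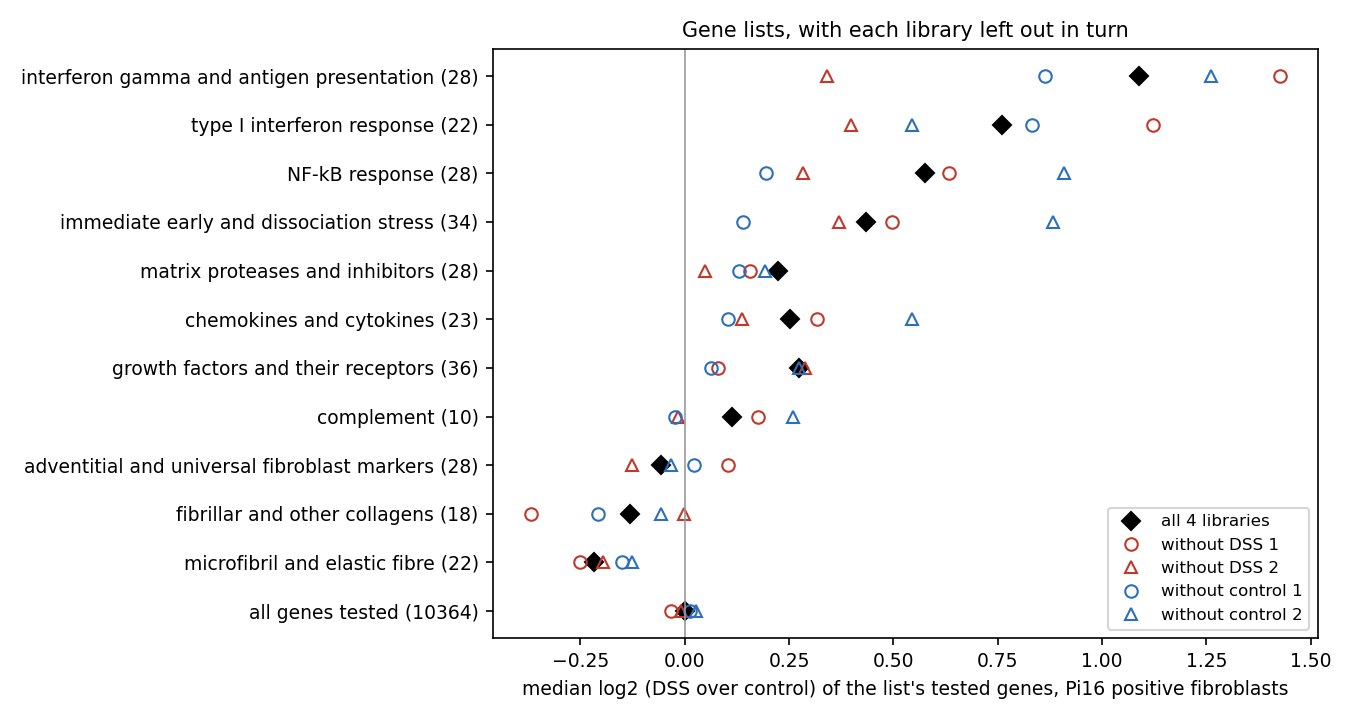
Median log2 fold change, DSS over control, of the tested genes of 11 lists (number of genes in brackets) and of all genes, in the members. Black diamonds use the 4 libraries and open symbols leave out 1 of them; the interferon gamma median lies between 0.34 without DSS 2 and 1.43 without DSS 1.

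The last comparison asked whether DSS differed in its effect between members and the other fibroblasts of the same libraries. The interaction in edgeR, with library as a block, called 3 of 11883 genes (0.0252%), and 387 had an unadjusted p under 0.05. Other fibroblasts alone had no gene called by edgeR in DSS against control, and 325 had an unadjusted p under 0.05. Their make-up differed by library. The Adamdec1 positive cells were 589 of 1644 and 425 of 979 in DSS, and 276 of 941 and 209 of 382 in control. The further cells with Kcnn3 or Fibin numbered 590 and 284 in DSS and 445 and 57 in control. The part of this make-up in the interactions was not tested.

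Fgf9, a fibroblast growth factor that signals in gut stroma, was lower in DSS members and higher in DSS among other fibroblasts. Fgf9 (chr14:58070547-58112720, plus strand) had 5.59 and 8.48 CPM in DSS members, against 37.9 and 25.4 CPM in control members. In other fibroblasts it had 36.9 and 54.0 CPM in DSS, against 18.6 and 23.8 CPM in control. The groups were apart in both cell types, in opposite directions. In members alone the DSS difference did not pass (log2 fold change -2.18, SE 0.40, edgeR adjusted p = 0.736). The interaction was -3.39 on the log2 scale (SE 0.39, edgeR adjusted p = 0.0439). It did not pass with median-ratio size factors, at most 10% mitochondrial UMIs, no predicted doublets, no shared barcodes or the replicate block. It passed with DESeq2, no filter on low counts, at least 4 UMIs of the set and at least 1 UMI of Pi16. Fgf9 was counted in 12 and 9 members of the DSS libraries and in 53 and 24 members of the control libraries. In inflamed cells that otherwise met the member rule Fgf9 had 4.18 and 3.16 CPM in DSS and 34.4 and 17.0 CPM in control, the order of the members. Without DSS 1 the adjusted p was 0.274, without DSS 2 0.0519 and without control 1 0.0926, with log2 values of -3.35, -3.39 and -2.79.

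Ccl2, a chemokine that draws monocytes, overlapped between the groups in members. It had 22.8 and 229 CPM in DSS members and 66.5 and 147 CPM in control members. In other fibroblasts it had 47.5 and 242 CPM in DSS, against 8.69 and 31.3 CPM in control. The interaction was -3.07 (SE 0.36, edgeR adjusted p = 0.0439). Among the processing settings listed for Fgf9, it passed in the same ones and failed in the same ones. In the inflamed cells that the rule removed, Ccl2 had 83.1 and 1516 CPM in DSS and 272 and 296 CPM in control. With those cells kept in both cell types the interaction was -1.79, with an edgeR adjusted p of 1. The cells with most Ccl2 held 36.7% of the members' Ccl2 UMIs in control 1 and 29.0% in control 2. Without DSS 1 the adjusted p was 0.209 and without control 1 it was 0.0926.

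Hbb-bs, a beta globin of red cells, had the largest interaction of the 3, 3.89 (SE 0.31, edgeR adjusted p = 0.0144), and it rested on 1 barcode. It had 457 and 0.942 CPM in DSS members and 36.9 and 0 CPM in control members. A predicted doublet of DSS 1 held 97.5% of that library's Hbb-bs UMIs, and without that cell the level was 11.7 CPM. In other fibroblasts Hbb-bs had 307 and 0.802 CPM in DSS and 375 and 0 CPM in control, so the first library of each group held the transcript. Without predicted doublets the interaction was -1.25. Without control 1 it was 0.66 (edgeR adjusted p = 1), and without DSS 1 it was 3.51 (edgeR adjusted p = 1).

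Wnt5a, a Wnt ligand that acts outside the beta-catenin pathway, did not pass in the interaction. It had 75.5 and 81.0 CPM in DSS members, against 105 and 84.0 CPM in control members. In other fibroblasts it had 244 and 361 CPM in DSS, against 139 and 120.3 CPM in control (interaction -1.49, SE 0.24, edgeR adjusted p = 0.206). Bmp2 had 45.2 and 65.0 CPM in DSS members and 47.8 and 57.1 CPM in control members, and 202 and 441 CPM in DSS and 76.1 and 135 CPM in control in other fibroblasts (interaction -1.55, SE 0.29, edgeR adjusted p = 0.538). Ier3, an early response gene, had an interaction of -1.40 (SE 0.21, edgeR adjusted p = 0.18). None of the 3 passed, and in each the other fibroblasts of DSS libraries had the higher level. In the other direction, the globin gene Hba-a1 had an interaction of 2.76 (edgeR adjusted p = 0.0553) and did not pass either. Without predicted doublets the Hba-a1 value was -2.20.

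**Figure D5:**
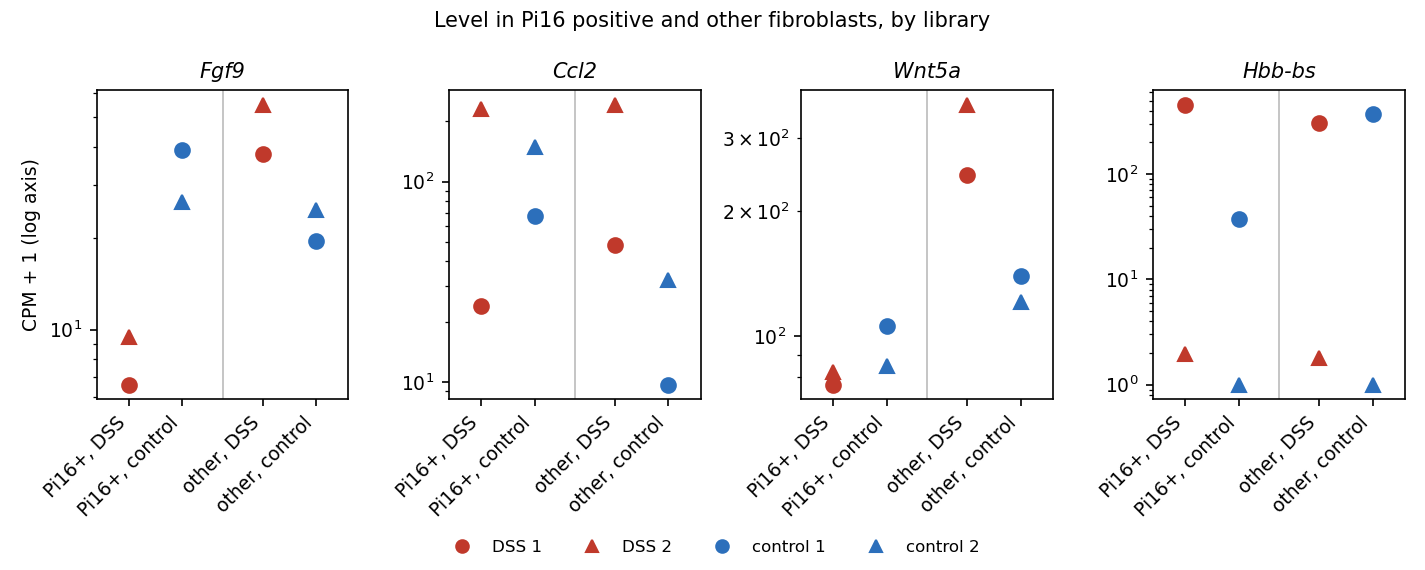
CPM plus 1 on a log axis per library for Fgf9, Ccl2, Wnt5a and Hbb-bs, with members on the left and other fibroblasts on the right of each panel. DSS libraries are red and control libraries blue. Fgf9 is lower in DSS members (5.59 and 8.48 CPM) than in control members (37.9 and 25.4 CPM) and the other way round in other fibroblasts, and Hbb-bs follows the first library of each group.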

How the data were processed

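Single cells of 2 DSS and 2 control libraries were measured. The deposited matrices hold whole UMI counts per gene and barcode, made with Cell Ranger 6.1.1 on GRCm38 per the submitters' processing notes. The labels name different versions for the capture kit and the library kit. Members were chosen by the limits given in the report, and the members and gene lists were chosen with earlier results of these data known. Counts were summed per library and cell type and tested in edgeR 4.0.16 (R 4.3.3; quasi-likelihood F test, TMM, filterByExpr, Benjamini-Hochberg, threshold 0.05), with DESeq2 1.42.0 as an alternative. The 15 genes of the member rule entered the scaling and got no p. Doublets were predicted per library with Scrublet (scanpy 1.11.5), kept, and left out in an alternative. For DSS against control, named genes were those that passed, filled to 8 per direction by unadjusted p among non-overlapping genes averaging 50 CPM or more in the higher group; for the interaction, 6 per direction; for members against other fibroblasts, the 15 largest ratios in each direction. List examples had the smallest unadjusted p or illustrate a role. On simulated data with 200 genes changed 4-fold, the DSS comparison recovered 99.5% of them over 10391 genes with 7 false calls. The interaction recovered 67.0% over 11410 genes with 5 false calls. The simulation gave every gene the same spread between libraries (dispersion 0.05) and changed only genes above 50 CPM. Its recovered shares therefore do not measure what the tests could find in these libraries. Gene coordinates are those of GENCODE M21. For overlapping genes, how reads were assigned is not stated in the labels, so genes that overlap other annotated genes, which include Pi16, Fbn1, Fgf9, Ccl2, Gli1, Ptch1, Iglc2, Mt2, Adm, Cdkn1a and Oit1 among many named in the report, may share reads with them.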

Additional observations from a re-analysis of the deposited data

Results flagged for a closer look

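For 3 genes the DSS effect in Pi16 positive fibroblasts differed from that in other fibroblasts by the edgeR interaction test. The difference was 3.89 on the log2 scale for Hbb-bs (adjusted p = 0.0144), -3.39 for Fgf9 (adjusted p = 0.0439) and -3.07 for Ccl2 (adjusted p = 0.0439). The Hbb-bs value rested on 1 predicted doublet of DSS 1. For Fgf9 the groups were apart in both cell types in opposite directions, with 12 and 9 UMIs in DSS members and 73 and 32 UMIs in control members. For Ccl2 the groups were apart in other fibroblasts and overlapped in members. The make-up of the other fibroblasts differed by library, and its part in these values was not tested.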

How the results depend on the processing

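With 2 libraries per group, few cells in DSS 2 and control 2, and a gate that removed more cells from those libraries, counts of calls were unstable. In the DSS comparison, which called 1 gene, DESeq2 called 5, no filter on low counts gave 94, and keeping the inflamed cells gave 0. Leaving out 1 library gave 0 to 66. In the interaction, which called 3, median-ratio size factors gave 1, DESeq2 2, no filter 36, keeping the inflamed cells 0, at least 4 UMIs of the set 6, at least 1 UMI of Pi16 14, at most 10% mitochondrial UMIs 1, no predicted doublets 0 and no shared barcodes 1. Leaving out 1 library gave 0 to 13. The cause was not tested. For members against other fibroblasts, a 4-fold limit left 39 genes higher and 74 lower, and a mean of at least 50 CPM left 103 higher and 139 lower, fewer by construction. The share difference of -9.79 points lay between -12.8 and -0.593 in other settings and between -16.1 and -3.49 without 1 library. The Hbb-bs interaction was -1.25 without predicted doublets, and that of Hba-a1 was -2.20 without them and lay between -0.93 (without DSS replicate 1) and 4.44 when 1 library was left out. Of 224 alternative values for 16 genes named in the DSS comparison, 189 kept their direction and side of the threshold, 3 no longer passed, 32 passed only there and 0 reversed. All 3 that no longer passed were values of Spink4, the only one of these genes that could stop passing. Of 168 for 12 genes of the interaction, 126 kept both, 22 no longer passed, 17 passed only there and 3 reversed. Only the 3 called genes, Hbb-bs, Fgf9 and Ccl2, could stop passing, so all 22 losses fell on them.

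Equal replicate numbers were not taken as pairing, since the labels do not say what they share and there are 2 pairs. Deviations of DSS 1 and control 1 correlated at 0.2028 over 10376 genes. With the replicate block, 24 genes were called for DSS against control, 11 higher and 13 lower, and 0 in the interaction.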
